A study of Mus musculus with 9 samples.

Results

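The miRNA content of epididymosomes was compared between the 2 ends of the mouse epididymis, the caput, where spermatozoa enter, and the cauda, where they are stored. Every miRNA whose mean reached 10 CPM (miRNA reads after each library is brought to one common total) in the caput or in the cauda was a member of the comparison. They numbered 349 of the 358 miRNAs measured, and the other 9 reached that level in the corpus alone. Of the 349, 250 reached it in both segments, 27 in the caput alone and 72 in the cauda alone. Epididymosomes came from male Swiss mice aged 8 weeks, with 3 libraries each for the caput, the corpus and the cauda. The RNA of several animals was combined for each library, so p-values here measure the spread between pools, not between single mice. The vasculature was perfused, luminal fluid was released by cutting the dissected tissue, and vesicles were recovered from a density gradient. The question was which miRNAs, families and abundance classes differ between vesicles at the start and at the end of the duct.

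Epididymosomes are extracellular vesicles shed by the lining epithelium into the lumen of the epididymis, where they meet the transcriptionally silent spermatozoa. They carry proteins, lipids and small RNAs. A miRNA guides the Argonaute complex to messenger RNAs chiefly through its seed, bases 2 to 8 from the 5' end. miRNAs with the same seed form a family with overlapping targets, while their genes can lie on different chromosomes and be transcribed independently.

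Of the 349 miRNAs, 292 were matched by name to a mature sequence of RefSeq on GRCm38.p6, and these held 224 different seeds. The sequences below, 5' to 3', are those of pairs and trios that share a seed, given in capitals. The first groups are shown because all members moved the same way between caput and cauda. The remaining groups are shown because their members differed in direction or in which of them was called, although the seed is the same.

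miR-196a-5p: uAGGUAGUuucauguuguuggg
miR-196b-5p: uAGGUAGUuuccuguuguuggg
miR-221-3p: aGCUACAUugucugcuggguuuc
miR-222-3p: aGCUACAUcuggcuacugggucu
miR-465a-5p: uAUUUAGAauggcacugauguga
miR-465b-5p: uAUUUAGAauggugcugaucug
miR-465c-5p: uAUUUAGAauggcgcugaucug
miR-204-5p: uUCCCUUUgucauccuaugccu
miR-211-5p: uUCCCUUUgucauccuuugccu
miR-10a-5p: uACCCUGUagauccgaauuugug
miR-10b-5p: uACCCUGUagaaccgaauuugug

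Members of the following groups differed in direction or call.

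miR-148a-3p: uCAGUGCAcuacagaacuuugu
miR-148b-3p: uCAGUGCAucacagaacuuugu
miR-152-3p: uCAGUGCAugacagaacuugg
miR-25-3p: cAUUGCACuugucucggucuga
miR-92a-3p: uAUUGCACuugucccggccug
miR-92b-3p: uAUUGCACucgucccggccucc
miR-146a-5p: uGAGAACUgaauuccauggguu
miR-146b-5p: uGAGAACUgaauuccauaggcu
miR-125a-5p: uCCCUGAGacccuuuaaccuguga
miR-125b-5p: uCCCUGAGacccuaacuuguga
let-7i-5p: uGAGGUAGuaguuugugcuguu
let-7b-5p: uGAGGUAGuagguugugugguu

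From caput to cauda, the miR-196 pair, miR-221-3p and miR-222-3p, 16 of 19 X-linked testis miRNAs and 5 miRNAs of striated muscle rose. The miR-204 and miR-211 pair, miR-375-3p, miR-146b-5p, miR-9-5p, miR-138-5p and 13 of 18 names of the Sfmbt2 list fell. Over all 349, 24.9% rose and 10.3% fell, where both words stand for a call with each of 2 scalings described below. With the second scaling, TMM, taken alone, 24.9% were higher and 20.3% lower, so the excess of rises depends on this rule. The filter fixed the direction of names that passed 10 CPM in 1 segment alone. These were 13 of the 19 testis names, 4 of the 5 muscle miRNAs, 13 of the 18 Sfmbt2 names, the miR-196 pair and miR-211-5p. The broadly expressed families let-7, miR-30, miR-26 and miR-181 gave few or no calls, while the share of the reads taken by miR-10a-5p and miR-10b-5p dropped and that of miR-143-3p increased. Changes were fitted with limma on log2(CPM + 1) to all 9 libraries, a scale on which miRNAs with few reads change less than their CPM. A miRNA was called at a fold change of 2 or more with a Benjamini-Hochberg adjusted p under 0.05.

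With the deposited scaling by library size, 171 of the 349 were called (49.0%), 135 of them higher (38.7%) and 36 of them lower (10.3%) at the cauda end. On this scale the median log2 change was 0.81, and 249 miRNAs had a value above 0. With TMM normalization, which aligns libraries by the bulk of their miRNAs, the median was 0.13 and 158 were called (45.3%), 87 higher (24.9%) and 71 lower (20.3%). The 2 scalings called 123 miRNAs in the same direction (35.2%), 87 higher (24.9%) and 36 lower (10.3%), and none in opposite directions. The 87 were all those higher with TMM, and the 36 all those lower with library size. TMM gave lower log2 changes as a set, so opposite calls were not to be expected and their absence lends no support. A further 48 were called higher with library size alone, and 35 lower with TMM alone. The CPM values of the 3 caput and the 3 cauda libraries did not overlap for 189 miRNAs (54.2%), 148 higher (42.4%) and 41 lower (11.7%). "Rose" and "fell" are used below for miRNAs called with both scalings, unless a scaling is named.

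Depth and make-up differed between libraries. Reads on miRNAs numbered 8274421 to 11306605 in the caput and 2001086 to 5896748 in the cauda, so that 10 CPM stood for 82.7 to 113 reads in the caput, 59.0 in cauda replicate 3, 21.8 in cauda replicate 2 and fewer in cauda replicate 1. Caput replicate 2 stood apart: its 3 most abundant miRNAs took 76.3% of its reads, its median miRNA was at 21.3 CPM, and its TMM factor was 0.478, while the other 5 libraries of the 2 segments had factors of 0.753 to 1.29. Without this library 146 miRNAs were called with library size (101 higher, 45 lower) and 142 with TMM (81 higher, 61 lower). Caput replicate 3 was at the other end of the caput libraries, and without it 201 were called with library size (174 higher, 27 lower) and 148 with TMM (82 higher, 66 lower). Of the 123 miRNAs called with both scalings, 83 (62 higher, 21 lower) stayed called with both whichever library was left out.

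**Figure D1:**
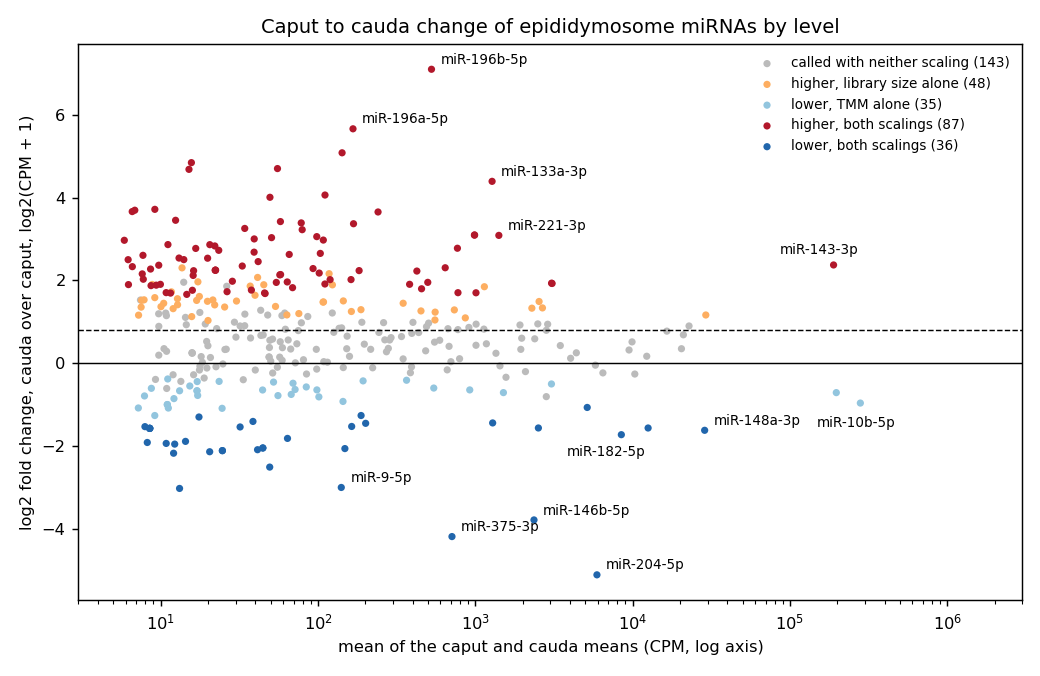
Log2 fold change of each of the 349 miRNAs, cauda over caput on log2(CPM + 1), against the mean of its caput and cauda means in CPM on a log axis. Red and dark blue points are called with both scalings (87 higher, 36 lower), orange points are called higher with library size alone (48) and light blue points lower with TMM alone (35). The solid line is at 0 and the dashed line at the median of 0.81, which lies above 0 because most points do.

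The make-up of the libraries changed most among the first 3 miRNAs. miR-10b-5p and miR-10a-5p, whose genes lie in the Hox clusters, together took 63.2%, 71.3% and 50.5% of the reads in caput replicates 1, 2 and 3. They took 33.2%, 33.4% and 34.5% in the cauda replicates, below every caput library. miR-143-3p, a miRNA of smooth muscle, took 5.10%, 4.98% and 8.81% in the caput and 35.2%, 30.7% and 28.7% in the cauda. The ratio of miR-143-3p to miR-10b-5p within a library, which no scaling can change, was 0.133, 0.115 and 0.297 in the caput libraries and 1.94, 1.67 and 1.44 in the cauda libraries. miR-10b-5p was below miR-143-3p in every cauda library and above it in every caput library.

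The change of the miR-10 pair was within 2-fold by library size, with log2 fold changes of -0.96 for miR-10b-5p and -0.71 for miR-10a-5p, and both were called lower with TMM alone (-1.64 and -1.39). By library size miR-10b-5p was called without caput replicate 3 (-1.12) and without cauda replicate 3 (-1.01). The proportion within the pair shifted little but without overlap: miR-10a-5p stood at 0.648, 0.643 and 0.700 of miR-10b-5p in the caput and at 0.823, 0.817 and 0.732 in the cauda.

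**Figure D2:**
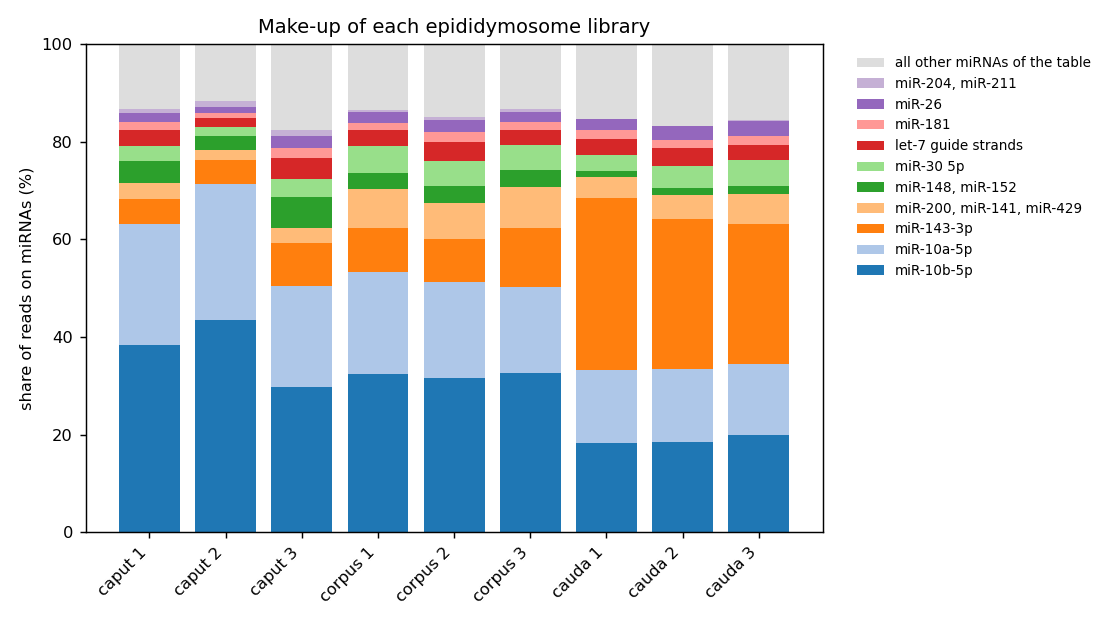
Share of the reads on miRNAs, in percent, taken by 10 miRNAs or families and by all other miRNAs in each of the 9 libraries. miR-10b-5p and miR-10a-5p fill 50.5% to 71.3% of the caput bars and 33.2% to 34.5% of the cauda bars, while miR-143-3p goes from 4.98% to 8.81% in the caput to 28.7% to 35.2% in the cauda.

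Other miRNAs among the 10 most abundant changed less in their share of the reads, and 2 of the 10 fell. miR-148a-3p was at 44275, 26327 and 60668 CPM in the caput and at 10851, 14812 and 15082 CPM in the cauda. Its groups did not overlap, and the log2 fold change was -1.62 (standard error 0.28, adjusted p = 0.00022, limma with Benjamini-Hochberg adjustment), or -2.30 with TMM. The other arm of its hairpin, miR-148a-5p, fell as well, from a mean of 241 to 55.5 CPM. miR-191-5p went from 11004, 23291 and 22333 CPM to 4814, 5630 and 8124 CPM, which again did not overlap (log2 fold change -1.57, adjusted p = 0.0013, limma and Benjamini-Hochberg adjustment). miR-141-3p, an epithelial miRNA of the miR-200 family, was called higher with library size alone, at a log2 fold change of 1.16 against 0.49 with TMM.

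For 4 of these 10 neither scaling gave a call. The log2 fold change was 0.90 for miR-30a-5p, 0.68 for miR-26a-5p, 0.77 for miR-21a-5p and 0.35 for miR-22-3p with library size, and 0.22, 0.01, 0.10 and -0.33 with TMM, so that miR-22-3p changed sign with the scaling. miR-30a-5p was called higher by library size when caput replicate 3 (1.08) or cauda replicate 1 (1.06) was left out.

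Over all members 38.7% were called higher and 10.3% lower with library size, and 24.9% and 20.3% with TMM. The abundance classes of 100 to 1000 and 10 to 100 CPM were near this with library size. They had 40.2% and 39.1% called higher and 6.90% and 9.20% lower. Higher calls were fewer at 10000 CPM or more (16.7%) and from 1000 to 10000 CPM (22.5%), and more under 10 CPM (58.3%). Among the 12 miRNAs at 10000 CPM or more, by the mean of the caput and cauda means, 2 were called higher and 2 lower with library size, and 1 higher and 4 lower with TMM. For the 40 miRNAs from 1000 to 10000 CPM the counts were 9 and 6 with library size and 5 and 8 with TMM. Among the 87 from 100 to 1000 CPM, 35 were called higher and 6 lower, or 22 and 12 with TMM. The 174 from 10 to 100 CPM gave 68 higher and 16 lower, or 44 and 37. Of the 36 under 10 CPM, 21 were called higher and 6 lower, or 15 and 10.

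Median log2 fold changes from the highest class to the lowest were 0.26, 0.43, 0.84, 0.83 and 1.53 with library size, against 0.81 over all members. With TMM they were -0.42, -0.25, 0.17, 0.19 and 1.01, against 0.13 over all. A miRNA in the lowest class passed through 1 segment, where it had at least 10 CPM, and so had to differ between the segments. Standard errors also grew towards low levels, with class medians of 0.27, 0.36, 0.43, 0.49 and 0.51.

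In reads the classes shifted as follows. The 12 most abundant miRNAs summed to 846848 CPM in the caput and to 832021 CPM in the cauda, and the 1000 to 10000 CPM class to 124448 and 120107 CPM. The class from 100 to 1000 CPM went from 23064 to 39038 CPM, and that from 10 to 100 CPM from 4830 to 7539 CPM. To cover 90% of the reads took 17, 13 and 23 miRNAs in the caput libraries and 23, 26 and 25 in the cauda libraries, with caput replicate 3 level with cauda replicate 1. The list of leading miRNAs was largely shared, since 16 of the 20 highest and 42 of the 50 highest in the caput were also among the 20 and the 50 highest in the cauda.

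The filter fixed the direction of part of the calls. Among the 250 miRNAs at 10 CPM in both segments, 74 were called higher and 21 lower with library size, and 43 and 46 with TMM. In the group that passed in the caput alone, 15 of 27 were called lower with library size and 25 with TMM. Of the 72 that passed in the cauda alone, 61 were called higher with library size and 44 with TMM.

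**Figure D3:**
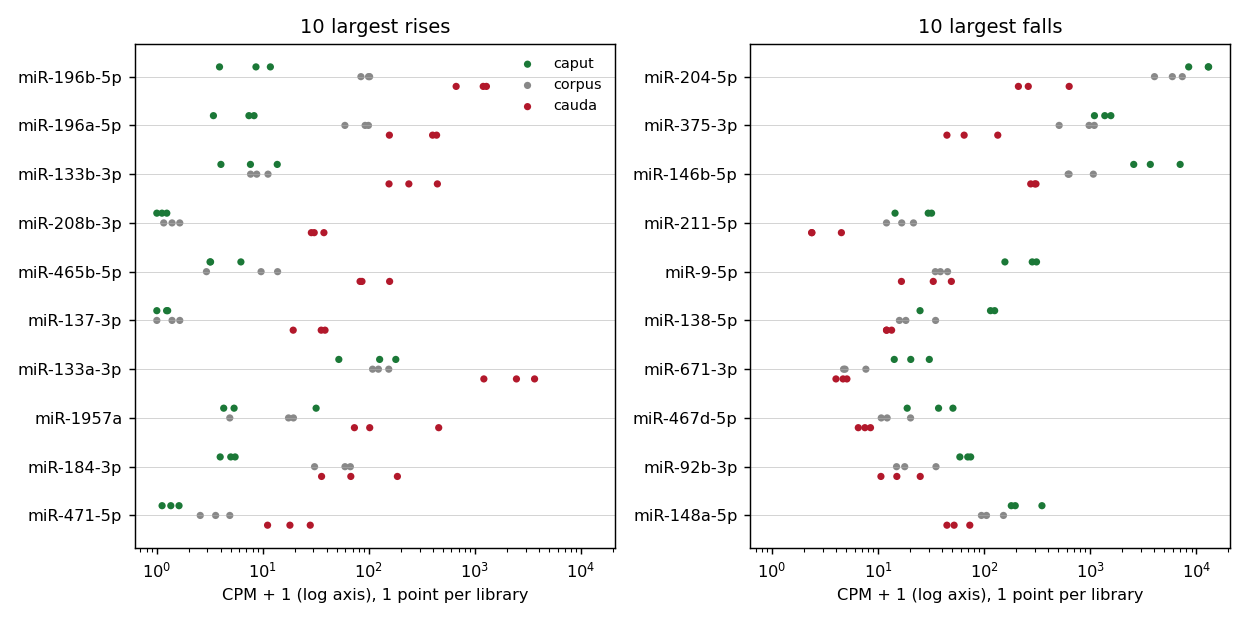
CPM + 1 on a log axis in each caput, corpus and cauda library for the 10 largest rises (left) and the 10 largest falls (right) among miRNAs called with both scalings without overlap of caput and cauda libraries. Each point is 1 library. The corpus libraries of miR-133b-3p, miR-208b-3p and miR-137-3p lie with the caput libraries, while those of miR-9-5p lie with the cauda libraries.

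The 2 largest fitted rises were those of the miR-196 pair, which derives from the Hox clusters and passed 10 CPM in the cauda alone. miR-196a-5p was at 7.25, 2.42 and 6.39 CPM in the caput and at 433, 397 and 155 CPM in the cauda (log2 fold change 5.66, standard error 0.50, adjusted p = 3.6e-07 by limma with Benjamini-Hochberg adjustment). It was already at 58.4 to 97.9 CPM in the corpus, above every caput library and below every cauda library. miR-196b-5p, whose hairpin lies on the minus strand at chr6:52230081-52230165 of GRCm38 in an exon of Hoxa9, rose more. Its ratio to miR-196a-5p was 1.05, 1.20 and 1.69 in the caput libraries and 2.96, 3.01 and 4.28 in the cauda libraries, with no overlap.

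The miRNAs of striated muscle rose without a step in the corpus. miR-133b-3p was at 6.63, 3.02 and 12.7 CPM in the caput, at 10.2, 6.66 and 7.75 CPM in the corpus and at 237, 441 and 154 CPM in the cauda (log2 fold change 5.08). miR-133a-3p went from 125, 51.0 and 178 CPM to 2458, 3644 and 1211 CPM (log2 fold change 4.39, or 3.72 with TMM). For both, the caput and corpus libraries were all lower than any cauda library. miR-208b-3p, encoded in an intron of the myosin gene Myh7, was at the floor of 3 reads or fewer in all caput libraries and at 29.5, 36.6 and 27.6 CPM in the cauda. The cauda mean was 86.2 times the highest caput floor (34.5 times with TMM), the level of 3 reads in caput replicate 2. Single cauda libraries can lie below this. miR-1a-3p rose from a mean of 3.47 to 15.3 CPM (log2 fold change 1.88), but was not called without cauda replicate 2 (1.48).

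All 5 members of this list were called higher with both scalings, but 4 of them reached 10 CPM in the cauda alone, so that the filter fixed their direction, and the count lends no support. Summed over the 5, the list stood at 55.5 to 197 CPM in the caput, at 121 to 167 CPM in the corpus and at 1412 to 4166 CPM in the cauda. Whether muscle cells contributed RNA to the cauda preparations was not tested.

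Smooth muscle, blood and mesenchymal lists had higher mean sums in the cauda, but not all of their members were called with both scalings. Over all 349, 38.7% were called higher with library size and 24.9% with TMM. The 4 arms of miR-143 and miR-145a summed to 50115 to 88995 CPM in the caput and to 291676 to 354786 CPM in the cauda, and 4 were called higher with library size and 2 with TMM. miR-145a-3p and miR-143-3p were the 2 called with both. Of the 4 red blood cell miRNAs, 4 were called higher with library size and 2 with TMM, and their sum went from 122 to 468 CPM in the caput to 1606 to 2225 CPM in the cauda. miR-486a-5p carried this sum, at 101, 210 and 380 CPM in the caput and at 2145, 1673 and 1428 CPM in the cauda. Its values were shared with miR-486b-5p, since the counting did not separate the pair. miR-144-3p and miR-451a were both called higher with library size and neither with TMM, so the 2 called with TMM were the arms of miR-486a. The sum of miR-144-3p and miR-451a was 21.0, 22.1 and 87.7 CPM in the caput and 62.5, 399 and 167 CPM in the cauda, which overlapped. In the paper haemoglobin protein was not detected by immunoblot in its epididymosome preparations.

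Among the 5 leukocyte miRNAs, 3 were called higher with each scaling, but the summed ranges overlapped (231 to 530 CPM in the caput, 392 to 1601 CPM in the cauda). Of the 6 arms of miR-199 and miR-214, which mark mesenchyme, 3 rose, among them miR-199a-3p and miR-199b-3p, which have 1 mature sequence. The lowest log2 fold change of the 6 was 0.34, or -0.32 with TMM. Their sum went from 1595 to 4950 CPM to 7944 to 12182 CPM. miR-199a-3p, which the counting did not separate from miR-199b-3p, was at 1338, 667 and 2120 CPM in the caput and at 3676, 5021 and 5624 CPM in the cauda. Neither arm of the endothelial miR-126a was called, and its sum was 837 to 2671 CPM in the caput, against 2684 to 3457 CPM in the cauda. The part of these cell types in the other changes was not tested, and more of a cell type or its vesicles cannot be told apart from more miRNA per vesicle.

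Epithelial miRNAs of the miR-200 family were present in every library. The 8 arms summed to 21061 to 31929 CPM in the caput, to 72124 to 84357 CPM in the corpus and to 44687 to 61155 CPM in the cauda. With library size miR-141-3p was called higher and none lower, while with TMM none was called higher and miR-200b-3p was called lower. miR-141-3p and miR-200c-3p come from 1 cluster on chromosome 6, yet their ratio was 16.1, 17.8 and 10.9 in the caput libraries and 26.2, 26.0 and 31.4 in the cauda libraries.

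Germ cell miRNAs, read from a list of 23 X-linked testis, miR-34 and miR-449 names, were all called higher with library size and 18 of the 23 with TMM, and miR-34c-3p and 13 of the testis names passed 10 CPM in the cauda alone. Their sum was 435 to 1172 CPM in the caput, while it was 1445 to 1595 CPM in the corpus and 2766 to 3757 CPM in the cauda. The contribution of sperm or of immature germ cells to these values was not tested.

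The 19 X-linked testis names, most of them within chrX:66776757-66839125 of GRCm38, form a rapidly evolving cluster expressed in the male germ line. All 19 were called higher with library size and 16 with TMM, with a median log2 fold change of 2.33 (1.86 with TMM). For 13 of the 19, which reached 10 CPM in the cauda alone, the filter fixed the direction, and of the other 6 all were called with library size and 3 with TMM. miR-881-3p led the list by level, at 34.1, 24.1 and 27.2 CPM in the caput, at 148, 196 and 220 CPM in the corpus and at 243, 272 and 409 CPM in the cauda. miR-465b-5p changed most, from 2.21, 2.18 and 5.21 CPM to 85.0, 81.5 and 156 CPM (log2 fold change 4.70), with 1.94 to 12.8 CPM in the corpus. miR-471-5p rose from 0.365 to 18.0 CPM on average. The smallest change was that of miR-871-3p, which was called with library size alone (log2 fold change 1.48, or 0.81 with TMM). Since the 3' arms of miR-465a, miR-465b and miR-465c have 1 mature sequence and nearly the same values, the list holds fewer independent measurements than names.

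Members on the X chromosome were described apart, since the testis list lies there. Of the 42 members with a single X-linked hairpin, 28 were called higher and 1 lower with library size, and 21 and 6 with TMM. Of the testis names, miR-465b-3p and miR-465c-5p have 2 loci each and were not among the 42. Without the testis list, 11 of the remaining 25 were called higher (44%) and 1 lower, or 7 (28%) and 6 with TMM. Over all 349 the shares called higher were 38.7% and 24.9%, so the 25 were near them. Members with a single autosomal hairpin numbered 265, of which 93 were called higher and 27 lower, or 53 and 54 with TMM.

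miR-34b and miR-34c, which are abundant in spermatocytes and spermatids and in multiciliated cells, share a transcript on chromosome 9. miR-34c-5p was at 798, 164 and 689 CPM in the caput and at 1355, 1710 and 1341 CPM in the cauda (log2 fold change 1.70, or 0.98 and not called without caput replicate 2). miR-34b-5p went from 37.1, 5.44 and 38.1 CPM to 81.5, 69.1 and 94.8 CPM, a log2 fold change of 1.95, or 1.09 without caput replicate 2. The other arm, miR-34b-3p, rose more, from 21.1 to 195 CPM on average (log2 fold change 2.97). The low values of caput replicate 2 thus carried much of the change of miR-34b-5p and miR-34c-5p.

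miR-221-3p and miR-222-3p are encoded next to each other at chrX:19146294-19146971 and repress the cell cycle inhibitor p27 and the receptor Kit. miR-221-3p rose from 327, 184 and 406 CPM in the caput to 1077, 866 and 1213 CPM in the corpus and 2545, 3089 and 1914 CPM in the cauda (log2 fold change 3.09, standard error 0.38, adjusted p = 9.4e-06 by limma with Benjamini-Hochberg adjustment). miR-222-3p rose from 150, 98.4 and 201 CPM to 972, 585 and 543 CPM (log2 fold change 2.22). The corpus libraries of miR-221-3p lay between both ends without overlap.

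Of the 26 miRNAs of the imprinted Dlk1-Dio3 locus on chromosome 12, which are made from the maternal chromosome, 19 were called higher with library size and 9 with TMM, and none lower with either. The median log2 fold change was 1.40, or 0.85 with TMM. The filter fixed the direction of 14, which passed in the cauda alone, and of the other 12 there were 7 called higher with library size and 3 with TMM. Shares called higher were 38.7% and 24.9% over all 349, and 29.6% and 17.2% over the 250 that passed in both segments. With TMM the 12 were thus near the share over all 349. miR-434-3p, picked after its values were seen, rose from 176, 112 and 436 CPM to 726, 1091 and 1320 CPM (log2 fold change 2.30). Of the 4 miRNAs of the Clcn5 intron on the X chromosome called higher with library size, 1 was called with TMM.

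Falls were fewer with library size, and several were steep. miR-204-5p and miR-211-5p, the miRNAs of the Trpm3 and Trpm1 introns, both fell. miR-211-5p was at 30.9, 13.4 and 28.6 CPM in the caput and at 3.50, 1.37 and 1.36 CPM in the cauda (log2 fold change -3.03). In the cauda it was near the floor of 3 reads. It passed 10 CPM in the caput alone, so that the filter fixed its direction. miR-204-5p fell by 5.11 on the log2 scale and miR-375-3p, a miRNA of endocrine and secretory cells, by 4.19.

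miR-146b-5p, an inhibitor of Toll-like receptor signalling, was at 2566, 7032 and 3679 CPM in the caput, at 617, 1067 and 630 CPM in the corpus and at 273, 298 and 306 CPM in the cauda. The log2 fold change was -3.79 (standard error 0.40, adjusted p = 1.9e-06, limma with Benjamini-Hochberg adjustment). miR-9-5p fell from 310, 156 and 282 CPM to 48.0, 15.6 and 32.1 CPM (log2 fold change -3.67 with TMM), with 33.6 to 44.1 CPM in the corpus. For miR-138-5p the values were 114, 23.8 and 124 CPM and 11.0, 11.0 and 12.4 CPM, a log2 fold change of -2.51, or -3.27 without caput replicate 2. In all 3 every cauda library lay below every caput library.

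miR-9, miR-138 and miR-137 are best known from neurons, but did not move together. miR-137-3p was at the floor in all caput libraries and at 34.5, 37.5 and 18.3 CPM in the cauda. Its cauda mean was 83.0 times the highest caput floor (33.7 times with TMM). It passed 10 CPM in the cauda alone, so that the filter fixed its direction. The sum of the 3 neuronal miRNAs went from 179 to 424 CPM in the caput to 62.7 to 93.4 CPM in the cauda, and a contribution of nerve tissue was not tested.

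The miR-182, miR-183 and miR-96 cluster, known from sensory organs and epithelia, lies at chr6:30165918-30169737 on 1 strand. miR-182-5p was at 12436, 10055 and 16734 CPM in the caput and at 3645, 3790 and 4165 CPM in the cauda (log2 fold change -1.73). miR-183-5p fell from 1417, 1992 and 2268 CPM to 731, 727 and 596 CPM (log2 fold change -1.44). miR-96-5p was at 229, 90.8 and 138 CPM in the caput and at 170, 153 and 88.4 CPM in the cauda, which overlapped (log2 fold change -0.11). Its ratio to miR-182-5p was 0.0184, 0.00903 and 0.00827 in the caput libraries and 0.0466, 0.0403 and 0.0212 in the cauda libraries.

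The Sfmbt2 list, the miR-466, miR-467 and miR-669 names of a rodent-specific repeat array in an intron of Sfmbt2 on chromosome 2, had mostly lower values in the cauda. Of 18 names, 13 were called lower and 1 higher with library size, and 17 lower and none higher with TMM. The median log2 fold change was -1.57, or -2.15 with TMM. For 13 names, which reached 10 CPM in the caput alone, the filter fixed the direction, and of the 4 that passed in both segments 2 were called lower with library size and 4 with TMM. miR-467d-5p changed most, from 36.1, 17.8 and 49.7 CPM to 6.50, 5.49 and 7.46 CPM (log2 fold change -2.14). The exception, miR-466i-5p, maps to chromosome 13, outside Sfmbt2. Its call (log2 fold change 1.96) was lost with TMM (1.40) and without caput replicate 1 (1.02), caput replicate 2 (2.07) or cauda replicate 3 (1.84), and it was 2.80 without caput replicate 3. Names of this list share sequence, and 11 of the 18 had the values of another name within 10 percent in every library.

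miR-99b-5p, let-7e-5p and miR-125a-5p, transcribed together from an intron of Spaca6 at chr17:17830188-17830879, were all lower. miR-125a-5p fell from 3694, 3207 and 4232 CPM to 1010, 956 and 1997 CPM (log2 fold change -1.57). miR-99b-5p fell from 6881, 8117 and 5918 CPM to 3614, 3461 and 2853 CPM (log2 fold change -1.07), and was under 2-fold without caput replicate 2 (-0.95) or cauda replicate 3 (-0.97). let-7e-5p was called lower with TMM alone (log2 fold change -1.28, or -0.60 with library size).

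The broadly expressed families changed less. Of 9 let-7 guide strands, 1 was called higher with library size (let-7i-5p) and none lower, and with TMM none was called higher and 2 lower (let-7b-5p and let-7e-5p). Their median log2 fold change was 0.32, or -0.36 with TMM, and their summed share of the reads was 1.79% to 4.20% in the caput and 3.07% to 3.57% in the cauda. No call was made with either scaling for the 5 members of miR-30 5p, the 4 of miR-181, the 3 of miR-29 or the 2 of miR-26, whose median log2 fold changes were 0.47, 0.39, 0.84 and 0.64. A missed threshold does not show that these miRNAs were equal between the segments. Within the miR-30 family the proportions did shift, since miR-30a-5p was 2.34, 2.18 and 2.34 times miR-30d-5p in the caput libraries and 5.51, 4.69 and 4.89 times in the cauda libraries.

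Shared seeds did not mean shared change. miR-152-3p, encoded in an intron of Copz2, was at 51.6, 43.3 and 98.4 CPM in the caput and at 191, 394 and 317 CPM in the cauda (log2 fold change 2.24), while miR-148a-3p with the same seed fell. Its ratio to miR-148a-3p was 0.00116, 0.00164 and 0.00162 in the caput libraries and 0.0176, 0.0266 and 0.0210 in the cauda libraries. miR-148b-3p, the third of the trio, was at 527, 517 and 1081 CPM and at 396, 710 and 747 CPM, which overlapped.

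In the miR-25 and miR-92 family, miR-25-3p rose from 383, 259 and 454 CPM to 870, 1443 and 1245 CPM (log2 fold change 1.70). miR-92b-3p, from chromosome 3, fell from 68.9, 57.9 and 73.5 CPM to 14.0, 9.61 and 23.9 CPM (log2 fold change -2.09). miR-92a-3p was at 164, 107 and 182 CPM and at 152, 181 and 164 CPM, and its log2 fold change was 0.16 with library size and -0.51 with TMM. The ratio of miR-25-3p to miR-92b-3p was 5.56, 4.47 and 6.19 in the caput libraries and 62.1, 150 and 52.1 in the cauda libraries.

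miR-146a-5p differs from miR-146b-5p in gene and in change: it was at 125, 436 and 179 CPM in the caput and at 181, 196 and 218 CPM in the cauda. From 0.0486, 0.0620 and 0.0488 of miR-146b-5p in the caput libraries it reached 0.662, 0.656 and 0.712 in the cauda libraries. miR-125b-5p was at 2232, 1569 and 2853 CPM and at 1438, 1645 and 2759 CPM, which overlapped, and its ratio to miR-125a-5p went from 0.604, 0.489 and 0.674 to 1.42, 1.72 and 1.38. let-7i-5p was 1.01, 0.594 and 0.619 times let-7b-5p in the caput libraries and 3.13, 3.82 and 3.03 times in the cauda libraries. Caput and cauda values of these ratios did not overlap. A two-sided exact permutation test gave p = 0.1 for each of the 7 pairs plotted, the smallest value that 3 against 3 libraries allow, and 0.107 after Benjamini-Hochberg adjustment over the 16 ratios computed. The same-seed pair miR-204-5p and miR-211-5p is not plotted: its ratio of 274, 965 and 456 in the caput libraries overlapped that of 59.7, 189 and 465 in the cauda libraries (exact permutation test, p = 0.3). The pairs were chosen after their values had been seen.

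**Figure D4:**
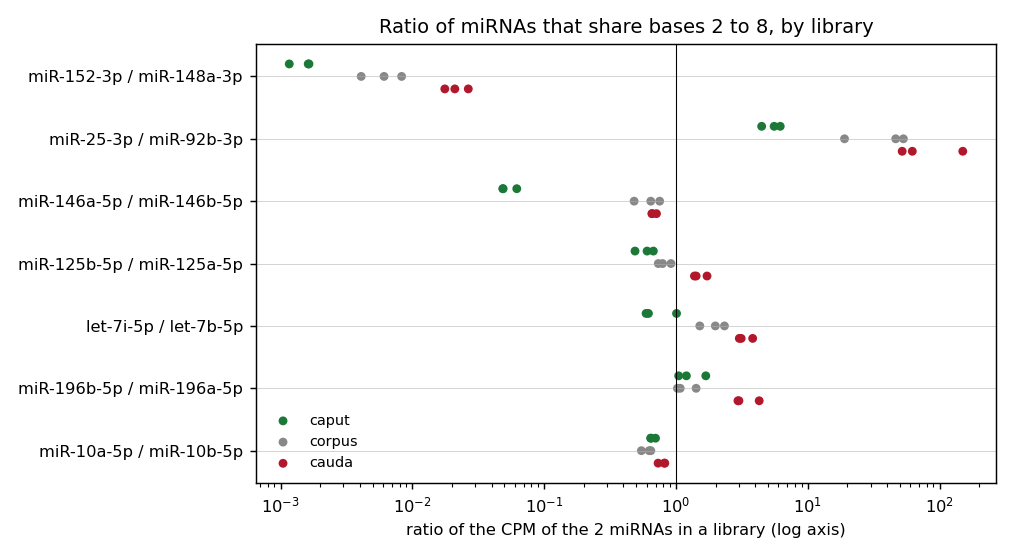
Ratio of the CPM of 2 miRNAs with the same seed in each caput, corpus and cauda library, on a log axis. The vertical line marks equal levels. The caput and cauda points of the 7 pairs plotted are apart, with the mean ratio changing by 16.3 times for miR-25-3p over miR-92b-3p and by 1.19 times for miR-10a-5p over miR-10b-5p.

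miRNAs of 1 transcript also diverged. In the miR-17 cluster on chromosome 14, in the host transcript Mir17hg, miR-18a-5p rose from 11.8, 7.13 and 17.5 CPM to 62.5, 191 and 180 CPM (log2 fold change 3.39). miR-19a-3p rose from 23.3, 6.16 and 25.9 CPM to 70.5, 187 and 81.2 CPM (log2 fold change 2.63, or 2.01 without caput replicate 2). miR-17-5p was at 92.4, 37.8 and 135 CPM and at 42.0, 59.1 and 38.8 CPM, and was called lower with TMM (-1.42) and, with library size, without caput replicate 2 (-1.27). The ratio of miR-18a-5p to miR-17-5p went from 0.127, 0.188 and 0.129 to 1.49, 3.23 and 4.63.

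Arms of 1 hairpin were compared as well, since their ratio within a library does not depend on scaling. Of 68 hairpins with both arms at a mean of 10 CPM or more over the caput and cauda libraries, 11 changed their 5p to 3p ratio (16.2%) at a fold of at least 2 and an adjusted p under 0.05, 5 towards the 5p arm and 6 towards the 3p arm. The fitted log2 changes of both arms had the same sign in 59 of the 68 with library size and in 53 with TMM, and in 47 the ratio changed by less than 2-fold. The count was fragile, at 1 to 19 with 1 library left out: it was 1 without caput replicate 1 or cauda replicate 2, 2 without caput replicate 3, 4 without caput replicate 2 or cauda replicate 1, and 19 without cauda replicate 3. miR-221 was the 1 hairpin called in all 9 of these fits. Its 5p to 3p ratio was 0.0575, 0.0526 and 0.0403 in the caput and 0.00707, 0.00727 and 0.00664 in the cauda (log2 change -2.83, standard error 0.45, adjusted p = 0.0029 by limma with Benjamini-Hochberg adjustment). miR-221-5p itself was at 18.3, 9.18 and 15.9 CPM and at 17.5, 22.0 and 12.2 CPM, so that the rise was in miR-221-3p. For miR-465b the ratio went from 0.338, 0.401 and 0.775 to 2.63, 2.98 and 2.84, and it was called in 7 of the 9 fits. Its 3p arm has the same mature sequence as miR-465a-3p and miR-465c-3p, so the ratio cannot be assigned to 1 hairpin. With nearly the same 3p values, miR-465a (log2 change 0.60) and miR-465c (0.77) were not called. Hairpins that share an arm sequence are counted apart among the 68.

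The corpus mean lay between the caput and cauda means in 81 of the 87 miRNAs that rose and 35 of the 36 that fell. These miRNAs were called because their caput and cauda values differed, so a corpus mean between them was likely. The counts therefore do not show that the changes were gradual. A corpus mean near the caput mean also counted: miR-133b-3p had means of 7.44, 8.19 and 277 CPM in caput, corpus and cauda. By library size the corpus had made a median of 0.44 of the log2 change among those that rose and 0.61 among those that fell, and for 26 of the 36 that fell more than 0.5 of the change lay before the corpus, against 40 of the 87 that rose. The sizes of the changes depended on the scaling. With library size, 63 of the 87 that rose changed more than 4-fold, 25 more than 8-fold and 9 more than 16-fold, and of the 36 that fell 14, 5 and 2 passed these sizes. With TMM the numbers were 36, 13 and 6 among those that rose and 33, 6 and 3 among those that fell.

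Members outside the family and marker lists made up 157 of the 349. Of these, 48 were called higher and 8 lower with library size, or 31 and 30 with TMM, while of the 192 in a list 87 were called higher and 28 lower, or 56 and 41 with TMM. The values of those named here had been seen when they were chosen. miR-184-3p rose from 3.98, 4.47 and 2.96 CPM to 66.5, 184 and 34.8 CPM (log2 fold change 4.01, or 3.37 without cauda replicate 2), having reached 29.7 to 65.8 CPM in the corpus. miR-5121, in an exon of the ribosomal protein gene Rpl13a, went from 26.7, 17.9 and 66.7 CPM to 610, 490 and 233 CPM (log2 fold change 3.65). miR-335-3p, from an intron of the imprinted gene Mest, rose from 9.91, 7.61 and 31.9 CPM to 96.4, 206 and 124 CPM (log2 fold change 3.22, or 3.81 without caput replicate 3). miR-708-5p, from an intron of Tenm4, rose from 5.93, 1.57 and 7.33 CPM to 36.0, 58.6 and 23.2 CPM. Both miR-184-3p and miR-708-5p passed 10 CPM in the cauda alone, so that the filter fixed their direction.

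miR-1957a varied widely within segments, at 3.27, 4.35 and 30.8 CPM in the caput and at 72.0, 101 and 454 CPM in the cauda, without overlap. Its log2 fold change of 4.06 was 4.97 without caput replicate 3 and 3.26 without cauda replicate 3. Among the falls outside the lists, miR-671-3p went from 19.3, 13.2 and 29.3 CPM to 3.00, 3.66 and 4.07 CPM (log2 fold change -2.18). It passed 10 CPM in the caput alone, so that the filter fixed its direction. miR-351-5p, which shares its seed with the miR-125 pair, fell from 203, 179 and 342 CPM to 55.5, 66.4 and 137 CPM (log2 fold change -1.53), but was not called without cauda replicate 1 (-1.27).

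A last pair shows a limit of names. miR-101c was called higher, from 18.0, 3.26 and 17.0 CPM to 76.0, 108 and 27.6 CPM (log2 fold change 2.45, or 1.75 without caput replicate 2), and miR-101a-3p was called with library size alone, at 1.33 against 0.66 with TMM, and not without caput replicate 2 (0.72) or cauda replicate 2 (1.28). The mature sequences follow, with the seed in capitals, and that of miR-101c lies within that of miR-101a-3p, so that reads of the former name could come from the latter.

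miR-101a-3p: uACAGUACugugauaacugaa
miR-101c: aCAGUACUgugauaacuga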

How the data were processed

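Reads of small RNA libraries from epididymosomes were processed by the authors, who per the submitters' processing notes and the methods used CASAVA 1.8.2, Bowtie 1.1.1, the quantifier of miRDeep2 and limma. The genome build and miRBase release are not given in the sources used here. The deposited values are CPM, scaled by the authors to the total reads on miRNAs of each library, and in each library 100% of the values checked were whole multiples of 1 read within 0.05, from which depth was taken. Reads, depths and floors are thus inferred from the spacing of the CPM values. Floors of 3 reads cover counting error only. Segment and replicate were taken from the labels.

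Cauda and caput were compared with limma 3.58 in R 4.3 (lmFit, eBayes with a trend) on log2(CPM + 1), over all 9 libraries with segment as the factor. The fit used all 358 miRNAs, with Benjamini-Hochberg adjustment over the 349 that reached a mean of 10 CPM in caput or cauda. TMM factors, computed from the recovered reads, trimmed 30% of log ratios and 5% of levels. Arm ratios had a pseudocount of 0.5 CPM. The tests were checked on simulated data.

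Members, lists and tests were chosen with earlier results of these data known. Named miRNAs were the 10 most abundant, the 10 largest rises and falls called with both scalings without overlap, and the leading and most changed member of each list, and others where stated. Some named here under families or clusters were picked after their values were seen. Alternatives covered normalization, pseudocount, filter, test, threshold, block and libraries left out. Those combining TMM with a library left out were added after the values were seen.

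Hairpins and hosts are those of GENCODE M21 on GRCm38, matched by name for 343 of the 349, and 307 had 1 locus. Tables were made with Python 3.11, pandas 2.3 and numpy 2.4, and plots with matplotlib 3.10.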

Additional observations from a re-analysis of the deposited data

How the results depend on the processing

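Scaling moved the split into higher and lower calls, and the threshold and single libraries moved the total. Against 171 calls, 135 higher and 36 lower, TMM gave 158 (87 and 71) and median-of-ratios 155 (84 and 71). Testing against a fold of 2 left 51 (46 and 5). Without 1 library the counts were 133 to 201 in all, 101 to 174 higher and 27 to 45 lower, and with TMM as well, an alternative chosen after the data had been seen, 142 to 159, 78 to 89 and 61 to 73. The replicate block gave 180 (144 and 36), and with TMM 164 (91 and 73), but the numbers were not taken to pair the libraries. Deviations of same-numbered libraries correlated at 0.12, -0.21 and 0.13 for caput and cauda, at 0.42, 0.43 and 0.013 for caput and corpus, and at 0.15, -0.22 and 0.094 for corpus and cauda, and not every library correlated best with its own number. Pseudocounts of 0.1 and 10 CPM, other filters, limma-voom on recovered reads, 6 libraries and near-identical names counted once gave 130 to 172. The edgeR tests, planned for raw counts, were not run, because the deposited values are CPM and the recovered reads are inferred from them.

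The 11 changed arm ratios became 6 with 6 libraries, 4 of 20 hairpins at 50 CPM or more, 13 with the replicate block, and 1 to 19 without 1 library. At an unadjusted p under 0.05 there were 23. Among the 68 miRNAs followed through the settings, 8 that were not called with library size changed sign in some setting. With TMM, median-of-ratios and the block with TMM the log2 fold changes were -0.33, -0.38 and -0.33 for miR-22-3p, -0.51, -0.55 and -0.51 for miR-92a-3p, and -0.38, -0.42 and -0.38 for miR-221-5p. miR-26a-5p was at -0.039 with median-of-ratios.

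Over fits without 1 library, with library size or TMM, ranges were -0.43 to 0.57 for miR-22-3p, -0.67 to 0.32 for miR-92a-3p, -0.59 to 0.47 for miR-221-5p, -1.01 to 0.19 for miR-148b-3p, -0.078 to 0.92 for miR-26a-5p, -0.0087 to 0.99 for miR-21a-5p, -1.11 to 0.23 for miR-96-5p and -1.23 to 0.40 for miR-146a-5p. Of calls made with both scalings, miR-25-3p was at 0.98 and miR-34c-5p at 0.98 with median-of-ratios, under 2-fold, and miR-1a-3p at 0.87 with a pseudocount of 10 CPM. The causes were not tested. Depth limits low miRNAs most in cauda replicates 1 and 2.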
